A study of Saccharomyces cerevisiae with 6 samples.

Results

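The transcripts described here are those of 10 budding yeast genes in or around the breakdown of arginine, proline and gamma-aminobutyric acid (GABA). They are CAR1, CAR2, PUT1, PUT2, PUT3, PRO3, GAD1, UGA1, UGA2 and UGA3, and each matched 1 of the 6416 rows of the transcript table. Together they are called the breakdown genes, although Pro3 makes proline, Gad1 makes GABA, and Put3 and Uga3 are activators. The genes were chosen by name from knowledge of the pathways, with earlier results of these data known. All 10 passed the filter on low values. RNA was sequenced from 3 samples of strain BY4741 that expressed NdeltaCit1-DS/AA (DS/AA here, replicates 1 to 3) and from 3 that expressed NdeltaCit1-DS/AA-H/G (DS/AA-H/G, replicates 4 to 6). Per the series' title, the expressed Cit1, a citrate synthase, lacks its presequence, the leader that sends the enzyme into mitochondria. Both groups therefore carry a presequence-less form with the DS/AA change, and they differ by the H/G change as named, so every comparison below is between 2 forms of that protein and not with cells that lack it. All cells grew in synthetic complete medium, which supplies amino acids, with galactose as the carbon source. The labels spell out neither the substitutions nor the promoter or plasmid of the expressed form, nor do they tell separate cultures from repeat preparations, so the p-values reflect the spread among these 3 samples a strain, which may be only technical.

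Arginine is split by arginase (Car1) into urea and ornithine, and ornithine aminotransferase (Car2) turns ornithine into a semialdehyde that closes to pyrroline-5-carboxylate. In the yeast cytosol Pro3 reduces that compound to proline, and in mitochondria Put1 and Put2 oxidise proline back to pyrroline-5-carboxylate and on to glutamate. Glutamate can be decarboxylated to GABA by Gad1, and Uga1 and Uga2 convert GABA through succinate semialdehyde into succinate, so that this GABA shunt enters the tricarboxylic acid (TCA) cycle after the 2-oxoglutarate dehydrogenase step. Put3 and Uga3 are zinc-cluster activators of genes for the use of proline and of GABA, in that order. In yeast these routes serve to use the amino acids as nitrogen sources, and several of their genes are known to be held down by nitrogen catabolite repression, which acts through GATA-type factors.

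The stretches below lie before the start codons of the genes that differed most between the strains and of the genes known to be bound by Put3 and Uga3, and they show where the letters of known binding motifs stand. They were read from the R64 genome, in which all 10 genes have the start and end given in the table, and positions count back from the start codon, whose first base follows base -1. Capitals mark letters that known factors bind, each searched on both strands. GATAAG is read by the factors of nitrogen catabolite repression. TGACTC is the core read by Gcn4, the activator of amino acid synthesis genes. CGGNNNNNNNNNNCCG is the pattern of Put3 and CCGNNNNCGG that of Uga3. GCCGCC is the core of URS1, through which Ume6 represses.
CAR1 (chrXVI:339500-339799, plus strand, bases -444 to -145): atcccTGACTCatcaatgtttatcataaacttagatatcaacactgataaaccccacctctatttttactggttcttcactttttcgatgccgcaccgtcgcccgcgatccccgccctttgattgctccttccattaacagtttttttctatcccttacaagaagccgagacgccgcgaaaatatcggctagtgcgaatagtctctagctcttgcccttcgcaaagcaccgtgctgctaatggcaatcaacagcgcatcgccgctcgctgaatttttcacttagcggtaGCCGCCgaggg
CAR2 (chrXII:1012309-1012384, plus strand, bases -192 to -117): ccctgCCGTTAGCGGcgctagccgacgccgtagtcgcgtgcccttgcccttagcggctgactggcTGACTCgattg
PUT1 (chrXII:424873-424991, plus strand, bases -313 to -195): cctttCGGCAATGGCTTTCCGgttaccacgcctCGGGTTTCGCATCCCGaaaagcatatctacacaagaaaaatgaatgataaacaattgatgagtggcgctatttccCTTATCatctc
PUT2 (chrVIII:181783-181831, plus strand, bases -194 to -146): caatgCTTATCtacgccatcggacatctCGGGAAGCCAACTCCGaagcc
UGA3 (chrIV:155967-156217, plus strand, bases -351 to -101): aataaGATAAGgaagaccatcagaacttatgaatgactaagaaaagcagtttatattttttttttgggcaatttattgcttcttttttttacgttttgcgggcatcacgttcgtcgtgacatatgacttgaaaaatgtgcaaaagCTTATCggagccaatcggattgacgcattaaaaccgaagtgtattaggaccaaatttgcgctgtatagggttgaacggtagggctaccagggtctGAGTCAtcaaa
UGA1 (chrVII:524842-524861, plus strand, bases -387 to -368): aaaagCCGCGGGCGGgattc

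Over the 500 bases before the start codon, the Put3 letters were found before PUT1 in 2 places and before PUT2 in 1, and before 2.5% of the 6316 protein-coding genes searched. The Uga3 letters stood before UGA1 and CAR2, against 3.1% of genes. TGACTC stood before 5 of the 10 genes (CAR1, CAR2, PUT3, PRO3 and UGA3), against 13.1%, and those 5 include PRO3, which was lower in DS/AA cells. GATAAG stood before 4 (PUT1, PUT2, PRO3 and UGA3, with 2 matches), against 22.7%, and GCCGCC before 3 (CAR1, PUT3 and UGA2), against 9.58%. Both GATAAG matches of UGA3 lie in the 677 bases between it and the divergent gene GLT1, and also count as matches before GLT1. The Uga3 and URS1 letters can overlap, as they do before UGA4, but no 2 matches overlapped before the 10 genes. None of the 5 motifs was found before GAD1. A match is a run of letters and was not tested as a binding site. The windows of 5 genes reach into the gene before them, which lies 200 bases away for PRO3, 216 for PUT2, 411 for PUT1, 462 for UGA2 and 477 for CAR2.

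**Figure D1:**
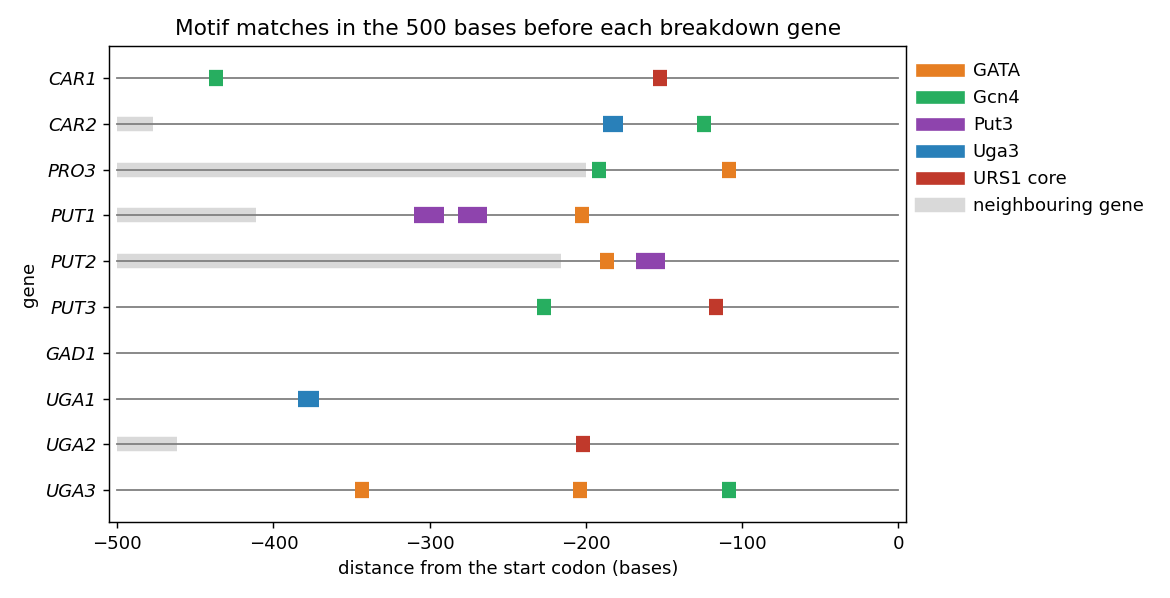
Matches of 5 motifs (coloured blocks) along the 500 bases before the start codon of each of the 10 genes, with distance in bases on the x axis and grey bars where the nearest upstream gene that does not overlap lies. The Put3 letters stand at PUT1 and PUT2, the Uga3 letters at UGA1 and CAR2, and the line of GAD1 is empty.

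Each library held 30277564 to 32702577 estimated reads, and the values are scaled estimated counts, that is, estimated reads per transcript divided by 1 factor per library. The mating type a genes STE2, STE6 and BAR1 were abundant in both strains, the alpha-specific STE3 stood at 451 to 525 scaled counts in DS/AA cells and 375 to 402 in DS/AA-H/G cells (log2 change 0.31, limma adjusted p = 0.00916), and the short rows MFA1 and MFA2 (111 and 117 nt) were near 0. Of 6 mating type a markers 4 were lower in DS/AA cells. The galactose genes GAL1, GAL2, GAL7 and GAL10 stood at 142091 to 412217 scaled counts, with GAL1 and GAL7 lower in DS/AA cells (log2 changes -0.15 and -0.21, limma adjusted p = 0.00572 and 0.000649). The CIT1 row took 1.64 to 1.79% of all counts in DS/AA cells and 3.76 to 3.79% in DS/AA-H/G cells. URA3, a common selection marker whose locus is deleted in BY4741, averaged 16114 ± 871 in DS/AA cells and 40821 ± 234 in DS/AA-H/G cells (SD, n = 3 each). HIS3, another common selection marker, averaged 1860 ± 162 in DS/AA cells and 1155 ± 97.2 in DS/AA-H/G cells. The part of these differences in the results below was not tested. The expressed form, the amount of its transcript and any unlabelled difference between the cultures cannot be told apart in what follows.

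Arginine breakdown stood out among the 10 genes. CAR1 and CAR2 were 2.06- and 2.04-fold higher in DS/AA cells than in DS/AA-H/G cells, and the activator gene UGA3 was 1.66-fold higher. The GABA enzymes GAD1, UGA1 and UGA2 and the activator gene PUT3 were higher by 1.16- to 1.23-fold, while PRO3 and PUT2 were slightly lower, at 0.87- and 0.90-fold. PUT1 was low in both strains and did not pass the test. Thus 7 of the 10 genes rose and 2 fell (limma on log2(value + 1), Benjamini-Hochberg adjusted p under 0.05 over 6197 genes). Over all tested genes 41.8% were called, 22.1% as higher and 19.7% as lower, so a call alone does not set a gene apart here. A rise of at least 1 on the log2 scale, which CAR1 and CAR2 both reached, was made by 3.5% of genes. The groups of libraries did not overlap for 9 of the 10 genes and for 52.7% of all tested genes. The median log2 change was 0.25 over the 10 genes and 0.01 over all tested genes. Each log2 change below is that of DS/AA cells over DS/AA-H/G cells, with its standard error (SE).

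**Figure D2:**
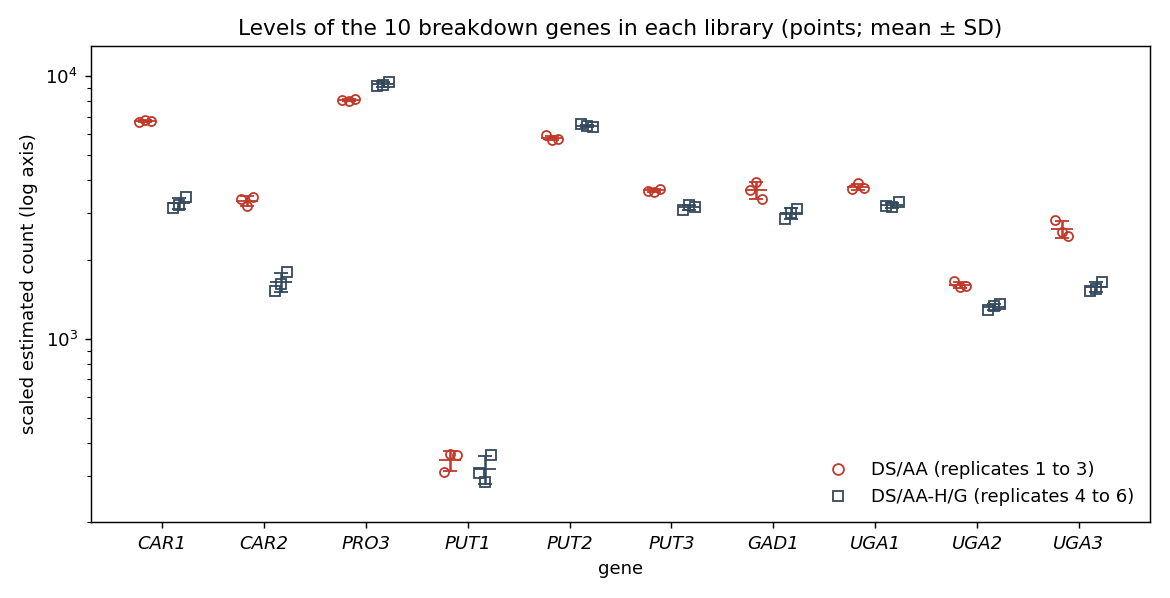
Scaled estimated counts (log axis) of the 10 genes in every library, with DS/AA as circles on the left and DS/AA-H/G as squares on the right of each gene, and the mean ± SD of 3 libraries as bars. The groups are far apart for CAR1, CAR2 and UGA3, stand the other way round for PRO3 and PUT2, and overlap for PUT1.

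CAR1 (YPL111W, chromosome XVI, 339944 to 340945, plus strand), the arginase gene, had 6678, 6800 and 6758 scaled counts in DS/AA cells, against 3137, 3230 and 3454 in DS/AA-H/G cells. Every DS/AA library was above every DS/AA-H/G library, and the 3 DS/AA values lay within a coefficient of variation of 0.916%. The log2 change was 1.04 ± 0.04 (SE, 95% interval 0.95 to 1.13, limma adjusted p = 2.92e-09), and 246 of the 6197 genes rose more. CAR2 (YLR438W, chromosome XII, 1012501 to 1013775, plus strand), the ornithine aminotransferase gene, had 3413, 3188 and 3457 scaled counts in DS/AA cells and 1524, 1611 and 1793 in DS/AA-H/G cells. The groups were again well apart, with a log2 change of 1.03 ± 0.06 (95% interval 0.90 to 1.16, limma adjusted p = 8.66e-08). CAR2 overlaps the reading frame YLR437C-A on the opposite strand over 186 nt, and that row held averages of only 7.54 scaled counts in DS/AA cells and 8.80 in DS/AA-H/G cells.

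The ratio between the genes of these consecutive enzymes did not differ between the strains beyond the spread of the libraries. The ratio of CAR1 to CAR2 within a library was 1.96, 2.13 and 1.95 in DS/AA cells, and 2.06, 2.004 and 1.93 in DS/AA-H/G cells. The ranges overlapped, and the log2 difference of the ratio was 0.01 ± 0.05 (SE; exact two-sided permutation p = 0.8, where 3 against 3 libraries allow no p below 0.1). Scaling by 1 factor per library cancels out of such a ratio, apart from the 1 added to each value, but quantile normalization does not (it gave log2 changes of 1.05 for CAR1 and 0.98 for CAR2). The ratio of CAR1 to ARG3, the ornithine carbamoyltransferase gene on the synthetic side of ornithine, was 10.9 ± 1.36 in DS/AA cells and 7.31 ± 0.631 in DS/AA-H/G cells (SD, n = 3 each). These groups did not overlap, and the log2 difference of the ratio was 0.57 ± 0.13 (SE; exact two-sided permutation p = 0.1, the smallest possible, and 0.45 adjusted over the 6 ratios tested).

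**Figure D3:**
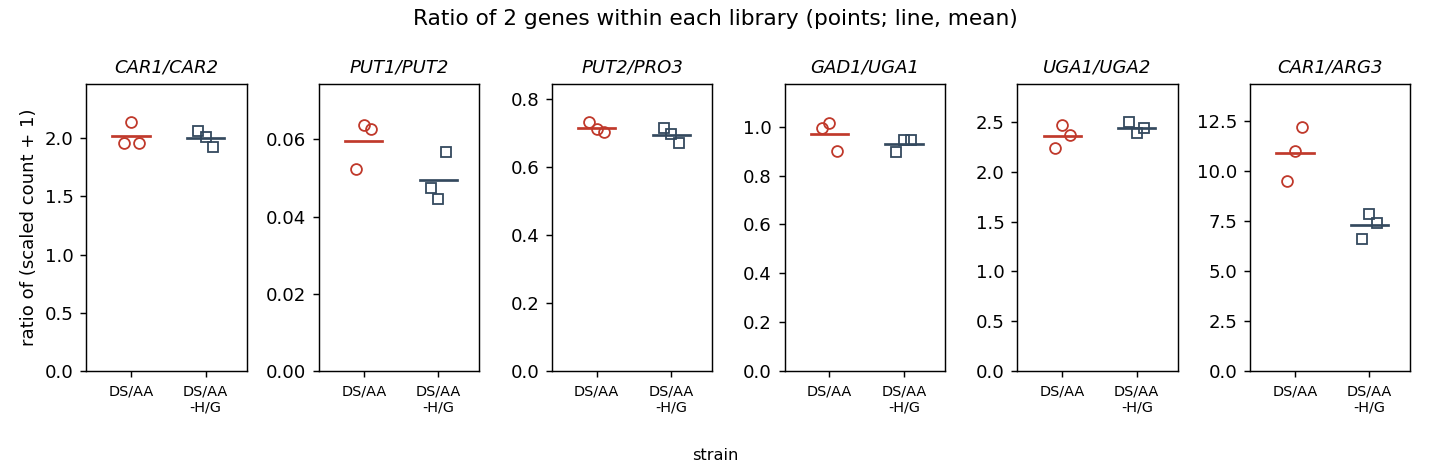
Ratio of the scaled counts (each plus 1) of 2 genes within each library, with DS/AA on the left and DS/AA-H/G on the right of each panel, points for libraries and lines for means. Only the panel of CAR1 to ARG3 has groups that do not overlap, and the ratio of CAR1 to CAR2 stays between 1.93 and 2.13.

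The proline-related genes among the breakdown genes changed little and in both directions. PRO3 (YER023W, chromosome V, 201076 to 201936, plus strand), which encodes pyrroline-5-carboxylate reductase, the last step to proline, had 8117, 8021 and 8160 scaled counts in DS/AA cells and 9132, 9249 and 9511 in DS/AA-H/G cells. It was lower in every DS/AA library, with a log2 change of -0.20 ± 0.03 (SE, limma adjusted p = 0.000464). It holds the reading frame YER023C-A on the opposite strand, which averaged 0 scaled counts in DS/AA cells and 0.326 in DS/AA-H/G cells. PUT2 (YHR037W, chromosome VIII, 181977 to 183704, plus strand), which encodes the mitochondrial pyrroline-5-carboxylate dehydrogenase, had 5939, 5720 and 5737 scaled counts in DS/AA cells, against 6532, 6439 and 6370 in DS/AA-H/G cells. Again no DS/AA library reached the lowest DS/AA-H/G library, and the log2 change was -0.15 ± 0.03 (SE, limma adjusted p = 0.00371).

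PUT1 (YLR142W, chromosome XII, 425186 to 426616, plus strand), the proline oxidase gene, was the least abundant of the 10. It had 310, 364 and 359 scaled counts in DS/AA cells and 308, 286 and 361 in DS/AA-H/G cells. The groups overlapped, and the log2 change of 0.12 ± 0.11 (SE, 95% interval -0.12 to 0.35) was not called (limma adjusted p = 0.415). Quantile normalization of the libraries turned its direction (log2 change -0.19, adjusted p = 0.148). Counting error alone gives a coefficient of variation of 5.39% at its DS/AA level, where the libraries varied by 8.58%, and 5.61% at its DS/AA-H/G level, where they varied by 12.1%. The 95% interval of its fold change is 0.92 to 1.27. PUT3 (YKL015W, chromosome XI, 408544 to 411483, plus strand), whose product activates PUT1 and PUT2 when proline is present, had 3645, 3629 and 3722 scaled counts in DS/AA cells, against 3080, 3224 and 3171 in DS/AA-H/G cells. It rose by a small amount that was larger than the spread between libraries (log2 change 0.21 ± 0.04, SE, limma adjusted p = 0.000564). The ratio of PUT1 to PUT2 within a library was 0.0596 ± 0.00628 in DS/AA cells and 0.0495 ± 0.00641 in DS/AA-H/G cells (SD, n = 3 each), with overlapping ranges (exact two-sided permutation p = 0.2). That of PUT2 to PRO3 was 0.716 ± 0.0146 in DS/AA cells and 0.694 ± 0.0228 in DS/AA-H/G cells (exact two-sided permutation p = 0.3).

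The 3 enzyme genes of the GABA shunt rose by similar small amounts, and the activator gene UGA3 rose more. GAD1 (YMR250W, chromosome XIII, 770801 to 772558, plus strand), the glutamate decarboxylase gene, had 3676, 3959 and 3385 scaled counts in DS/AA cells, against 2859, 2996 and 3126 in DS/AA-H/G cells. No DS/AA library fell to the highest DS/AA-H/G library, although DS/AA varied by 7.81% (log2 change 0.29 ± 0.06, SE, limma adjusted p = 0.00143). UGA1 (YGR019W, chromosome VII, 525229 to 526644, plus strand), the GABA transaminase gene, had 3695, 3896 and 3757 scaled counts in DS/AA cells and 3195, 3174 and 3306 in DS/AA-H/G cells. UGA2 (YBR006W, chromosome II, 247010 to 248503, plus strand), the succinate semialdehyde dehydrogenase gene, had 1653, 1578 and 1585 in DS/AA cells and 1282, 1329 and 1355 in DS/AA-H/G cells. Neither gene's groups overlapped. The log2 change was 0.23 ± 0.04 for UGA1 (SE, limma adjusted p = 0.000454) and 0.28 ± 0.05 for UGA2 (SE, limma adjusted p = 0.000416).

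Within a library these 3 genes kept their proportions to within the spread of the libraries. The ratio of GAD1 to UGA1 was 0.971 ± 0.0611 in DS/AA cells and 0.928 ± 0.0289 in DS/AA-H/G cells (SD, n = 3 each, exact two-sided permutation p = 0.3). The ratio of UGA1 to UGA2 was 2.36 ± 0.118 in DS/AA cells and 2.44 ± 0.0523 in DS/AA-H/G cells (exact two-sided permutation p = 0.4). Adjusted over the 6 ratios, p was 0.45 to 0.8, so no change of a ratio passed this test, whose floor of 0.1 with 3 libraries each lies above 0.05.

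UGA3 (YDL170W, chromosome IV, 156318 to 157904, plus strand), which encodes an activator of genes for GABA use, had 2828, 2546 and 2458 scaled counts in DS/AA cells, against 1517, 1543 and 1645 in DS/AA-H/G cells. The groups were well apart, and DS/AA replicate 1 was the highest library. The log2 change was 0.73 ± 0.06 (SE, 95% interval 0.61 to 0.86, limma adjusted p = 8.44e-07), and 406 genes rose more. The interval lies above those of GAD1 (0.17 to 0.42), UGA1 (0.15 to 0.31) and UGA2 (0.18 to 0.38). A test of the difference between these genes' changes was not made.

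**Figure D4:**
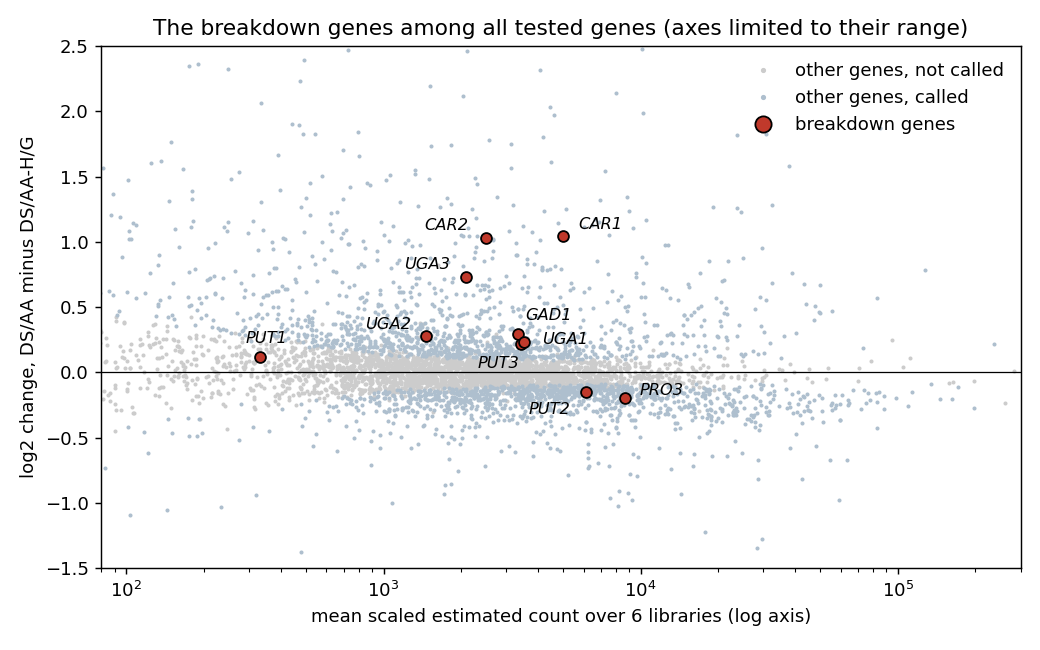
Log2 change (DS/AA minus DS/AA-H/G) against the mean scaled estimated count (log axis) of all tested genes within the range shown, with called genes in blue-grey, uncalled genes in light grey and the 10 breakdown genes in red. CAR1, CAR2 and UGA3 lie above the bulk of genes of like level, and PRO3 and PUT2 just below 0.

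Per kilobase of coding length, PRO3 was the most abundant of the 10 in both strains, with means of 9407 scaled counts per kb in DS/AA cells and 10798 in DS/AA-H/G cells. CAR1 stood second in DS/AA cells, with 6732 per kb, and in DS/AA-H/G cells, with 3267, it lay below PUT2 (3356 per kb in DS/AA cells and 3731 in DS/AA-H/G cells). In DS/AA cells these were followed by UGA1 (2671 per kb), CAR2 (2630), GAD1 (2090), UGA3 (1645), PUT3 (1247), UGA2 (1075) and PUT1 (241). Of the neighbours in that order, the ranges of UGA1 and CAR2 overlapped. In DS/AA-H/G cells the order after CAR1 was UGA1 (2278 per kb), GAD1 (1703), CAR2 (1288), PUT3 (1074), UGA3 (988), UGA2 (885) and PUT1 (222), with no overlap between neighbours. CAR2 thus stood below GAD1 in DS/AA-H/G cells and above it in DS/AA cells, and UGA3 likewise changed places with PUT3. Together the 10 genes made up 0.128 to 0.130% of all counts in DS/AA cells and 0.103 to 0.106% in DS/AA-H/G cells.

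The genes around these routes were read in 9 lists of 47 genes, of which 33 rose, 0 fell and 14 did not pass (limma, and 0 were lower at an unadjusted p under 0.05), with a median log2 change of 0.33. Over all tested genes 22.1% were called higher and 19.7% lower, and the lists were chosen with earlier results of these data known. Among 5 permease genes 4 rose. GAP1, the general amino acid permease gene, averaged 3114 ± 170 scaled counts in DS/AA cells and 1508 ± 103 in DS/AA-H/G cells (SD, n = 3 each). Its log2 change was 1.05 ± 0.06 (SE, limma adjusted p = 4.65e-08), close in size to those of CAR1 and CAR2. PUT4, the proline permease gene, averaged 1967 ± 164 in DS/AA cells and 1069 ± 65.6 in DS/AA-H/G cells (log2 change 0.88 ± 0.07, limma adjusted p = 8.12e-07), so the proline uptake gene rose where the oxidase gene PUT1 was not called. CAN1, the arginine permease gene, rose by 0.20. ALP1, a related basic amino acid permease gene, rose by 0.29, but was not called under quantile normalization (adjusted p = 0.943), and it shares 180 nt at 95% identity with LYP1, so its counts are uncertain. UGA4, the GABA permease gene, was at 164 ± 2.07 scaled counts in DS/AA cells and 138 ± 19.2 in DS/AA-H/G cells and did not pass (log2 change 0.25, limma adjusted p = 0.145).

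Urea, the other product of arginase, is taken apart by the enzyme of DUR1,2 and carried by the permease of DUR3. Both rose, DUR1,2 by 0.18 ± 0.04 (SE) and DUR3 by 0.41 ± 0.08, but DUR3 not under quantile normalization (adjusted p = 0.0918). None of PRO1 and PRO2, which lead from glutamate towards proline, and SPE1, which takes ornithine to polyamines, was called (log2 changes -0.12, 0.07 and 0.07, limma adjusted p of 0.122 to 0.218, none under 0.05 unadjusted), although PRO1 was lower under quantile normalization (adjusted p = 0.0397) and without DS/AA replicate 3 (adjusted p = 0.00768), and PRO2 and SPE1 were higher with equal column totals (adjusted p = 0.0166 and 0.0368).

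Among 6 regulators of arginine and GABA genes only ARG80 was called. It encodes a partner of Mcm1 in arginine control and averaged 796 ± 58.7 scaled counts in DS/AA cells and 621 ± 13.6 in DS/AA-H/G cells (log2 change 0.36 ± 0.07, SE, limma adjusted p = 0.00128). ARG81, ARG82, MCM1, UME6 and DAL81 lay between -0.07 and 0.07. With equal column totals ARG81 (adjusted p = 0.0437) and UME6 (0.0288) were called higher, and under quantile normalization ARG82 was called lower (0.0395). The 5 genes of the GATA circuit of nitrogen catabolite repression all rose, against 22.1% of all tested genes. DAL80, a GATA repressor gene whose own transcription is nitrogen-repressed, averaged 189 ± 23.8 in DS/AA cells and 61.5 ± 9.30 in DS/AA-H/G cells, a log2 change of 1.604 ± 0.16 (SE, limma adjusted p = 6.85e-06). The activator genes GAT1 and GLN3 rose by 0.47 ± 0.04 and 0.33 ± 0.05. GZF3 and URE2 rose by only 0.16 and 0.12, and GZF3 was not called under quantile normalization, by limma without trend and robust moderation, or without DS/AA replicate 3 or DS/AA-H/G replicate 6 (adjusted p = 0.0539 to 0.0695), nor URE2 without DS/AA replicate 1 or DS/AA-H/G replicate 4 or 6 (adjusted p = 0.0517 to 0.0819). DAL80 and GAT1 overlap reading frames on the opposite strand, YKR033C and YFL021C-A, which averaged 2.97 and 18.1 scaled counts in DS/AA cells, against 1.71 and 19.0 in DS/AA-H/G cells. Of 6 genes for breakdown of allantoin, another nitrogen source, 4 rose, with DAL3 at 0.69 ± 0.15 and DAL2 at 0.50 ± 0.09. Under quantile normalization DAL3, DAL5 and DAL7 were not called (adjusted p = 0.0644, 0.954 and 0.156). DAL5 was also lost without DS/AA replicate 2 or 3 or DS/AA-H/G replicate 4 or 6 (adjusted p = 0.0827 to 0.126), and DAL7 by limma without trend and robust moderation and without DS/AA replicate 3 or DS/AA-H/G replicate 4 or 5 (adjusted p = 0.0508 to 0.0714). DAL4, at 0.35, was called by limma without trend and robust moderation (adjusted p = 0.0417) and not otherwise.

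**Figure D5:**
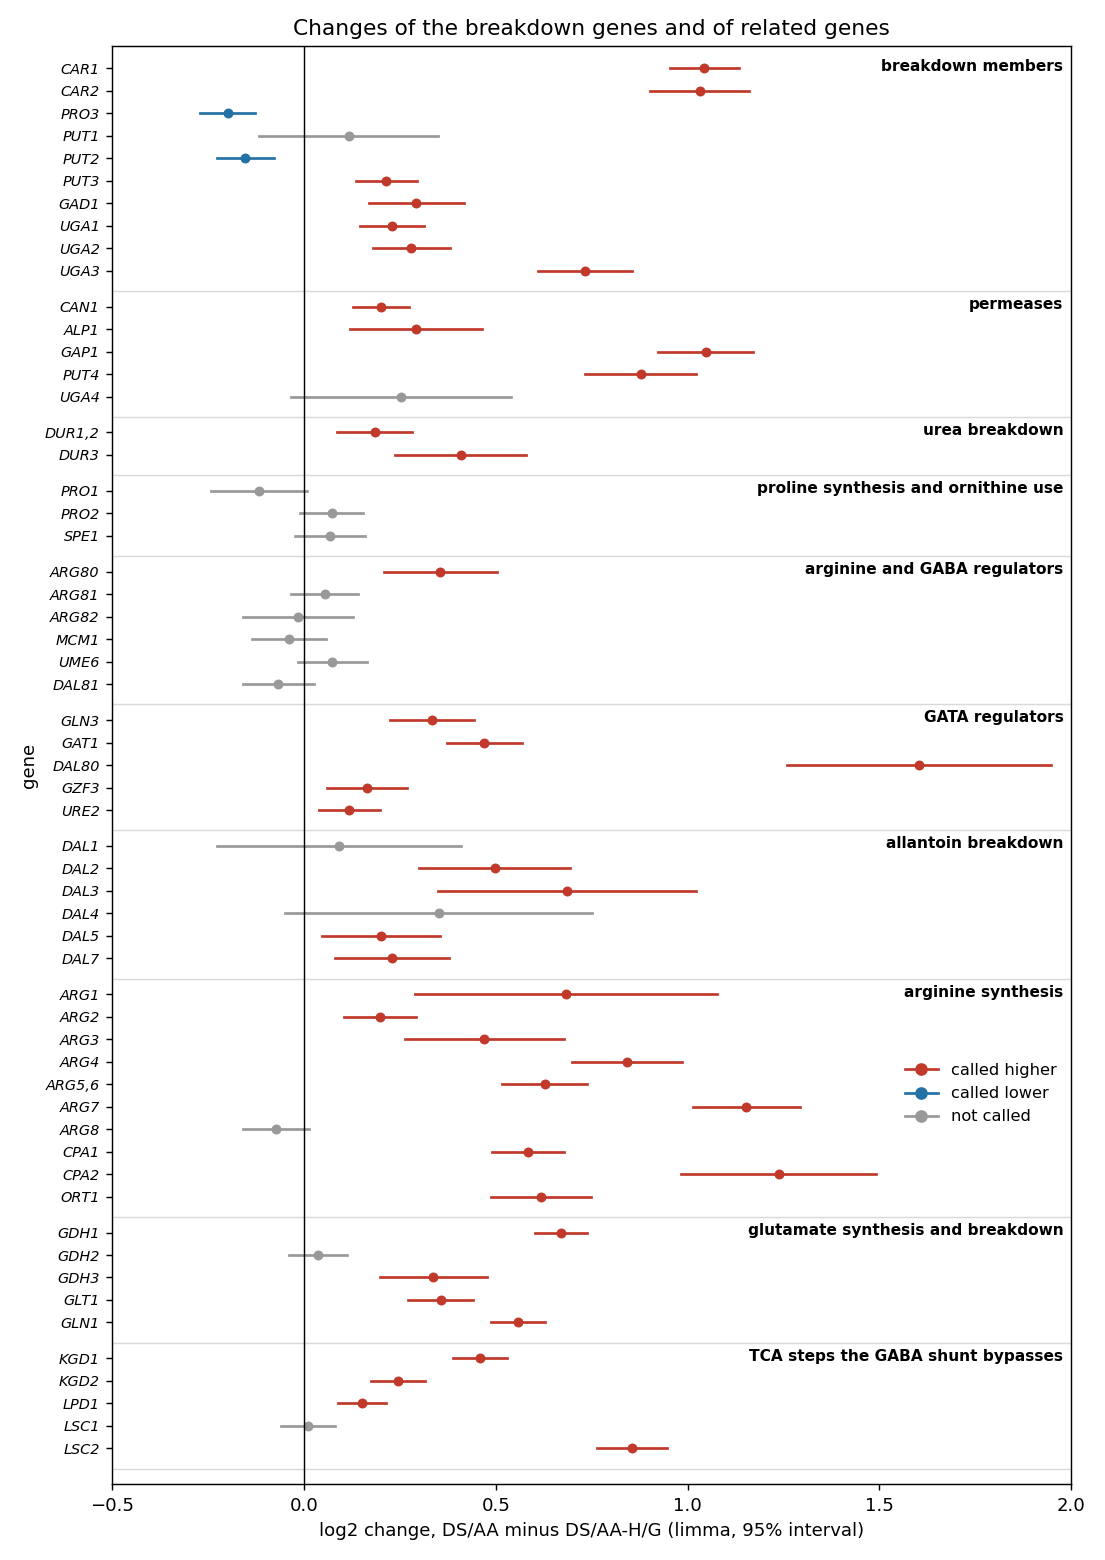
Log2 change (DS/AA minus DS/AA-H/G) with its 95% interval from limma for the 10 breakdown genes and the 47 genes of 9 related lists, coloured by whether they were called higher, lower or not called. PRO3 and PUT2 are the 2 genes called lower, and DAL80 has the largest rise shown, 1.604.

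Arginine synthesis genes were higher in DS/AA cells along with CAR1 and CAR2. Of 10 arginine synthesis genes 9 rose, against 22.1% of all tested genes, with a median log2 change of 0.62. ARG3, which competes with CAR2 for ornithine, averaged 624 ± 74.9 scaled counts in DS/AA cells and 449 ± 34.3 in DS/AA-H/G cells (log2 change 0.47 ± 0.09, SE, limma adjusted p = 0.00192). The exception was ARG8, with a log2 change of -0.07 (limma adjusted p = 0.158), which was called lower under quantile normalization (adjusted p = 0.0278), and ARG1 (log2 change 0.68) was not called without DS/AA-H/G replicate 4 or 6 (adjusted p = 0.0662 and 0.0615). TGACTC was found before all 10 arginine synthesis genes, against 13.1% of the genes searched. GATAAG was found before 6 of the 10, against 22.7%, and the Put3 letters before 1, against 2.5%. The Uga3 and URS1 letters were found before 0 of the 10. Glutamate, the product of Put2, is made and used by 5 listed genes, of which GDH1, GDH3, GLT1 and GLN1 rose. GDH2, whose product takes glutamate apart, averaged 4727 ± 81.3 in DS/AA cells and 4608 ± 67.0 in DS/AA-H/G cells and was not called (limma adjusted p = 0.427). Of the 5 genes for the TCA steps that the GABA shunt goes round, 4 rose. KGD1, of 2-oxoglutarate dehydrogenase, changed by 0.46 ± 0.03 and LSC2, of succinyl-CoA ligase, by 0.85 ± 0.04 on the log2 scale. Both values were larger than those of GAD1, UGA1 and UGA2, but those of the other genes of this list were not. KGD2 (0.24) lay below GAD1 and UGA2 and just above UGA1. LPD1 (0.15) and LSC1 (0.01, not called) lay below GAD1, UGA1 and UGA2.

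CAR1 had the largest fitted change of the 10 genes, but CAR2 had the larger one without DS/AA replicate 2 (1.04 for CAR1 and 1.07 for CAR2) and without DS/AA-H/G replicate 6 (1.08 for CAR1 and 1.10 for CAR2). Among 5400 tested genes with a mean of at least 100 scaled counts, the 5 whose log2 values over the 6 libraries lay nearest to those of CAR1, each centred on the DS/AA-H/G mean, were VID24, GAP1, MEP1, CAR2 and YGR201C. Their root mean square distances were 0.0332, 0.0458, 0.0470, 0.0509 and 0.0638 on the log2 scale. VID24 encodes a subunit of the GID ubiquitin ligase (log2 change 1.07) and MEP1 an ammonium permease (log2 change 1.02). YGR201C, an uncharacterised gene, changed by 1.003. With 2 strains and 3 libraries each, such nearness mainly says that the sizes of the changes were alike.

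In the authors' deposited table the same 9 genes are marked as changed and PUT1 is not. Its log2 ratios of the group means are 1.04 for CAR1, 1.03 for CAR2 and 0.74 for UGA3 in the authors' deposited table, and -0.15 for PUT2 and -0.20 for PRO3, with q-values of 0.00147 and 1.54e-05 for PUT2 and PRO3 in that order.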

How the data were processed

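RNA from 3 DS/AA and 3 DS/AA-H/G samples was sequenced from NEBNext Ultra II Directional libraries, per the labels' protocols. The submitters' processing notes name bcl2fastq 2, cutadapt 1.18, Salmon 1.2.1, R 3.5.1 and genome build R64 (settings not given in the sources used here, nor whether counting used strand). The deposited signal per transcript is an estimated count that the authors divided by 1 factor per library. That follows from the values themselves: in each library 93.3 to 96.4% of values under 10 steps were whole multiples of 1 step (within 0.01), but only 36.5 to 44.0% of all values above 0, so no count model was used. The authors also deposited log2 ratios, p-values, q-values and a rank score, from a test not given in the sources used here, with a mark for changed rows.

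The 6197 rows that reached 1 in 3 or more of the 6 samples were tested with limma 3.58.1 in R 4.3.3 on log2(value + 1), with trend and robust moderation and Benjamini-Hochberg adjustment, which was also tested on simulated data. The log2(value + 1) scale understates changes of low rows. Exact permutation tests used Python 3.11.15. Samples share no replicate number and were not paired. The 10 genes, the lists and the motifs were chosen with earlier results of these data known. All 10 genes and the listed genes could be named; for the gene with the largest fitted change, the 5 genes nearest in pattern were added. BLAST+ 2.17.0 found no other locus sharing 100 nt at 95% identity with any of the 10. Other settings tried were 2 pseudocounts, 2 filters, 3 scalings, limma without trend and robust moderation, and leaving out each library. LEU2 and MET17 were also looked for, but neither name matched a row. Intervals for counting error do not cover variation between cultures.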

Additional observations from a re-analysis of the deposited data

How the results depend on the processing

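In all 14 alternatives 9 of the 10 genes were called, 7 higher and 2 lower, and each of these 9 was called in each alternative. CAR1 ranged from 1.01 to 1.10 on the log2 scale, CAR2 from 0.98 to 1.10, UGA3 from 0.67 to 0.79, PUT2 from -0.17 to -0.10 and PRO3 from -0.21 to -0.14. PUT1 was called in none and ranged from -0.19 (quantile normalization) to 0.21. The number of genes called over the table was 2590 (1368 higher, 52.8%), with 2812 under quantile normalization (1034 higher, 36.8%), 2588 with equal column totals (1841 higher, 71.1%, and 747 lower, against 1222 as deposited) and 2533 with equal totals without CIT1 (1543 higher, 60.9%). Leaving out 1 library gave 2009 to 2578. The log2 difference of the CAR1 to CAR2 ratio was -0.029 to 0.035 when 1 library was left out, negative without DS/AA replicate 2 or DS/AA-H/G replicate 6, and that of CAR1 to ARG3 was 0.49 to 0.67. Genes that were not called and changed sign were UGA4 (-0.0585), DAL1 (-0.281) and DAL4 (-0.0076) under quantile normalization, and ARG82 (0.0396) and MCM1 (0.0158) with equal column totals. ARG82 also did so with equal totals without CIT1 (0.0088), without DS/AA replicate 1 (0.017) and without DS/AA-H/G replicate 5 (0.0062), MCM1 without DS/AA replicate 2 (0.0016), and LSC1 without DS/AA replicate 2 (-0.00016) and without DS/AA-H/G replicate 6 (-0.00070). With 1 library left out these 3 ranged from -0.0572 to 0.017 (ARG82), from -0.0788 to 0.0016 (MCM1) and from -0.00070 to 0.0302 (LSC1). The cause was not tested. No paired analysis was possible because the groups share no replicate number. PUT1 had the lowest counts among the 10 genes, and DAL4, DAL1 and UGA4 among the other enzyme and permease genes that were not called. The part of depth in these missing calls was not tested.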

Other observations

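The genes next to the 10 breakdown genes, on their upstream side, were also read. UGA3 and GLT1, the glutamate synthase gene, are divergent and 677 bases apart, and GLT1 averaged 7851 ± 231 scaled counts in DS/AA cells and 6134 ± 223 in DS/AA-H/G cells (SD, n = 3 each; log2 change 0.36 ± 0.04, SE, limma adjusted p = 1.68e-05). RCR1, 462 bases before UGA2 on the same strand, rose by more than UGA2, with 1715 ± 210 in DS/AA cells and 871 ± 61.7 in DS/AA-H/G cells (log2 change 0.97 ± 0.08, limma adjusted p = 5.78e-06). The neighbours of CAR1 and CAR2 had smaller log2 changes: PEX25, 1323 bases from CAR1, by 0.14 and DIF1, 477 bases from CAR2, by 0.25 on the log2 scale (limma adjusted p = 0.0371 and 0.0116). ATP7, 554 bases from PUT3, changed by 0.19 (limma adjusted p = 0.00144). The neighbours of PUT1, PUT2, PRO3, GAD1 and UGA1 were not called (limma adjusted p = 0.129 to 0.766).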
